A study of Homo sapiens with 6 samples.

Results

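The genes described here are 10 genes of macroautophagy, the route by which a cell wraps its own cytoplasm in a double membrane and delivers it to the lysosome. They were taken from the deposited gene count table by symbol: ULK1, ATG13, BECN1, WIPI1, ATG5, ATG7, MAP1LC3B, GABARAPL1, GABARAPL2 and SQSTM1. All 10 were found among the 16362 genes of the table. Gene expression was measured in cultured human breast cancer cells, labelled as the line MDA-MB-231, after 24 h with the agent CTI-2 (3 libraries) and in cells with no agent (3 control libraries). CTI-2 is known here by its code name alone. No source used here states the CTI-2 dose, a vehicle in the controls or whether the libraries of a group came from separate cultures. The p-values therefore measure the spread between these libraries, which may be technical. Reads were long cDNA reads from an Oxford Nanopore cDNA-PCR kit, which amplifies whole cDNA molecules.

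In starved or stressed cells the ULK1 kinase, bound to ATG13 and the scaffold FIP200, starts the process. It activates the lipid kinase complex built on Beclin 1 (BECN1), which marks the growing membrane with the lipid PI3P, read by WIPI proteins. ATG7 and ATG5 belong to the ubiquitin-like conjugation systems that attach proteins of the ATG8 family, among them MAP1LC3B, GABARAPL1 and GABARAPL2, to that membrane. SQSTM1, also called p62, binds both ubiquitinated cargo and ATG8 proteins and is itself degraded with the cargo. Much of this control acts on proteins, and the counts report transcripts alone.

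Total counts were 2208261 to 3153469 in the CTI-2 libraries and 2349758 to 3929532 in the controls, so that 3 counts equal 0.763 to 1.36 CPM, the count scaled to a library total of 1000000. The labelled line was checked with 8 of 9 listed marker genes. CD44 (168.5 to 188 CPM with CTI-2, 131 to 160.1 CPM in controls) and CAV1 (74.1 to 83.4 CPM with CTI-2, 57.0 to 76.6 CPM in controls) were present, ZEB1 lay at 14.8 to 19.9 CPM and AXL at 2.98 to 7.42 CPM over all libraries. CDH1 and ESR1 had 0 to 1 and 0 to 2 counts in a library, and PGR was not analysed here. VIM, a very abundant transcript of mesenchymal cells, lay at 14.5 to 16.8 CPM with CTI-2 and 18.3 to 18.9 CPM in controls. CDKN2A, a gene generally reported as deleted in MDA-MB-231, lay at 254.5 to 321 CPM with CTI-2 and 337 to 612 CPM in controls. The levels of VIM and CDKN2A go against the label in all 6 libraries, so the cells are called by their label without a claim on their identity.

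After CTI-2, ULK1, the gene of the initiating kinase, was the member that fell, to 0.641 of the control level, and no member rose in edgeR, DESeq2 or limma. BECN1, ATG5 and GABARAPL2 had higher mean CPM with CTI-2 but did not pass the test. ATG7, ATG13 and GABARAPL1 differed little between the groups, MAP1LC3B and WIPI1 were read too rarely for a firm value, and SQSTM1 was low in a single CTI-2 library. Of the 10 members 9 had enough counts to be tested. Of these 1 had a Benjamini-Hochberg adjusted p under 0.05 by the edgeR quasi-likelihood test, against a background of 8.03% of the 9848 genes tested, 4.64% lower and 3.39% higher. That balance of directions turned without control 2, with 957 genes higher and 653 lower. With so few genes, 1 of 9 is near that background. The CPM of the 2 groups did not overlap for 2 of the 9, ULK1 and GABARAPL2, against 28.8% of all tested genes. Unadjusted p-values were under 0.05 for 4 of the 9, against 23.9% of all tested genes. The median log2 fold change, CTI-2 minus control, was 0.04 over the 9 members and -0.01 over all tested genes, with 6 of the 9 above 0.

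**Figure D1:**
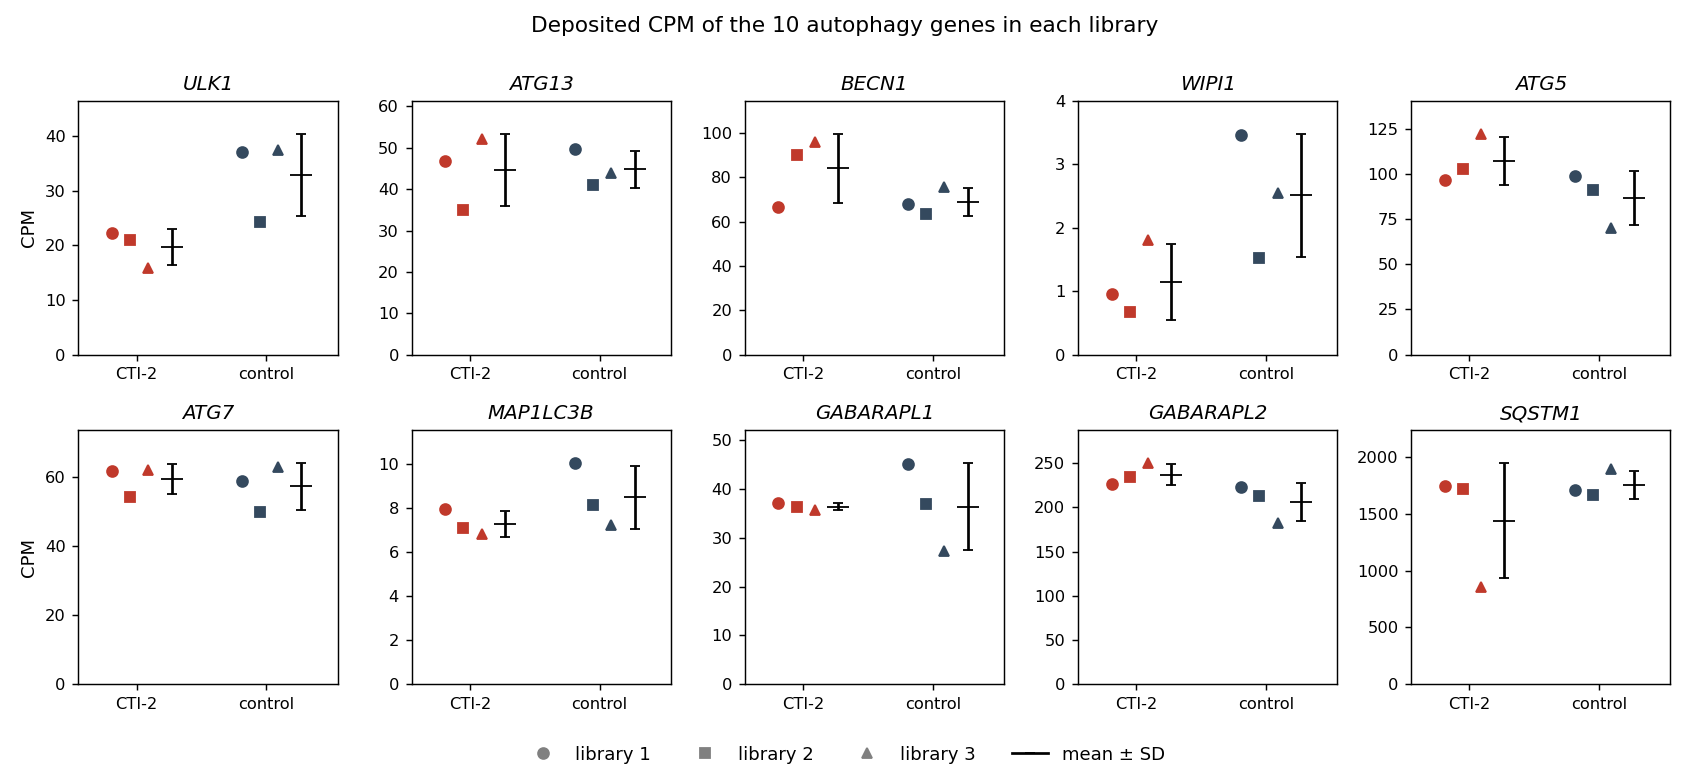
Deposited CPM (vertical axis, from 0) of the 10 autophagy genes in the 3 CTI-2 libraries (left, red) and the 3 control libraries (right, blue), with the mean ± SD of each group in black. The 3 CTI-2 values of ULK1 lie below all controls, and for SQSTM1 the CTI-2 library 3 point at 858 CPM lies apart from the other 5 points at 1671 to 1902 CPM.

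ULK1 encodes the serine/threonine kinase at the head of the pathway. It (ENSG00000177169) lies on chromosome 12 at 131894651 to 131923167, plus strand, in GENCODE 29 on GRCh38. ULK1 stood at 22.2, 20.9 and 15.8 CPM in CTI-2 libraries 1 to 3 and at 37.0, 24.2 and 37.5 CPM in controls 1 to 3. The groups did not overlap, and control 2 lay close to the CTI-2 libraries. The reads behind these values numbered 70, 62 and 35 with CTI-2 and 96, 95 and 88 in controls. ULK1 fell by 0.64 on the log2 scale (SE 0.18, edgeR adjusted p = 0.0229), with means of 19.6 ± 3.35 CPM with CTI-2 and 32.9 ± 7.53 CPM in controls (SD, n = 3 per group). In such bulk libraries fewer cells with the transcript and less of it per cell cannot be told apart. ULK1 missed the threshold when control 1 was left out (-0.55 on the log2 scale, adjusted p = 0.115), without control 3 (-0.57, adjusted p = 0.0837) and without CTI-2 library 3 (-0.53, adjusted p = 0.121), and DESeq2 gave an adjusted p of 0.0982. The direction was the same under all 17 alternatives, with log2 fold changes of -0.80 to -0.45 and adjusted p of 0.00482 to 0.121.

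Transcript properties moved with the direction of change across the table, and ULK1 is longer and richer in GC than the median of the genes that fell. The median over its basic GENCODE 29 transcripts is 5310 bases, with 64.2% GC. Genes that fell had medians of 2583 bases and 55.4% GC, genes that rose 1570 bases and 46.9%, and all tested genes 2485 bases and 48.9%. ULK1 stood at -0.52 on the log2 scale (adjusted p = 0.0525) once the length trend of every library was taken out, and at -0.45 (adjusted p = 0.114) once the GC trend was. The part of these properties in the ULK1 value was not tested further.

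As the member that fell, ULK1 is shown with the 250 bases upstream of its RefSeq start (GRCh38.p14, chr12:131894372-131894621, plus strand), where regulators of autophagy genes could bind. GABARAPL1 (chr12:10212627-10212876, plus strand) is set beside it as a member whose group means were almost equal. Capitals mark a match to a searched motif.
ULK1: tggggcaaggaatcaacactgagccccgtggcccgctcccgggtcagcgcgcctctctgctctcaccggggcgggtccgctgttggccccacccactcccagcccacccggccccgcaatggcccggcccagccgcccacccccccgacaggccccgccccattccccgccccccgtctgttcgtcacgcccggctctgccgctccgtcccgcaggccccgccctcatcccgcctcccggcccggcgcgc
GABARAPL1: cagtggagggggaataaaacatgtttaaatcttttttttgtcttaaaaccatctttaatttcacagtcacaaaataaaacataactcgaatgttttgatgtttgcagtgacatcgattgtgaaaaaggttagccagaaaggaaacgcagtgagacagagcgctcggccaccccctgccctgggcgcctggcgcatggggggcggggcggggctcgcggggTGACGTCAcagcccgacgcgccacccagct
The 250 bases before the RefSeq start were available for all 10 members and were searched on both strands. That start lay within 500 bases of the GENCODE 29 gene start for 7 members. SQSTM1, among these 7, was the only member whose start was not near a basic transcript start. Its nearest was at -14366 bases, where a negative distance means that the RefSeq start lies upstream. The SQSTM1 window is therefore far from the transcript starts of that set. The RefSeq start lay farther inside the gene span for ATG5 (9525 bases), BECN1 (9471 bases) and MAP1LC3B (8341 bases). Each of these 3 starts was near an annotated basic transcript start, at -58, 384 and 2 bases from it in that order. The ATG5 window had 26.4% GC and the BECN1 window 58.8%. Whether these windows, or that of SQSTM1, hold the promoter in use was not tested. The 10 windows therefore need not be 10 promoters, and a motif missing from them may lie elsewhere in the gene. The GABARAPL1 start lay 419 bases inside its span and at the start of an annotated transcript. CACGTG, the core that the lysosomal and autophagy regulator TFEB binds, was in none of the 10 windows. It was in 6.49% of 27305 windows taken in the same way. The full CLEAR element, which contains that core, was in none of the 10 and in 0.33% of all. The FOXO motif GTAAACA was in none of the 10 and in 2.98% of all. The antioxidant response element TGACNNNGC, bound by NRF2, was found in the window of MAP1LC3B alone of the 10 and in 11.035% of all. The cyclic AMP response element TGACGTCA was found in GABARAPL1, 30 to 23 bases before the RefSeq start, and in 1.765% of all. ULK1 held none of these letters in this window, whose GC content was 78.0% against a median of 58.0% over all windows. These are matches of letters and no record of binding.

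ATG13, the regulatory subunit of the ULK1 complex, is on chromosome 11 at 46617527 to 46674818, plus strand, in the same annotation. It had 46.9, 35.1 and 52.1 CPM with CTI-2 and 49.7, 41.0 and 43.8 CPM in controls. The CTI-2 range enclosed all 3 controls. ATG13 gave a log2 fold change of 0.04 (SE 0.15, approximate 95% interval -0.25 to 0.33, edgeR adjusted p = 0.908), and its sign depended on the scaling, becoming -0.0098 with library totals.

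BECN1 (chromosome 17, 42810134 to 42833350, minus strand) encodes Beclin 1, the core of the lipid kinase complex. Its levels were 66.6, 90.0 and 96.0 CPM with CTI-2 and 67.8, 63.4 and 75.8 CPM in controls. CTI-2 library 1 lay among the controls while libraries 2 and 3 lay above them. The log2 fold change of BECN1 was 0.34 (SE 0.13, edgeR adjusted p = 0.105). Without CTI-2 library 1 it passed (0.48, adjusted p = 0.0341), and the adjusted p ranged from 0.0341 to 0.413 over the alternatives. BECN1 overlaps the proteasome activator gene PSME3 on the opposite strand, with 349 to 478 counts in CTI-2 libraries and 299 to 517 counts in controls, and whether counting used strand is not stated, so its value is uncertain.

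WIPI1 encodes a PI3P-binding protein of the forming membrane and lies on chromosome 17. It had 3, 2 and 4 counts with CTI-2 and 9, 6 and 6 counts in controls, which is 0.951, 0.674 and 1.81 CPM with CTI-2 and 3.47, 1.53 and 2.55 CPM in controls. Each CTI-2 count was below each control count, but in CPM the groups overlapped, and WIPI1 was under the filter on low counts. ARSG, which overlaps it on the opposite strand, had 4 to 9 counts with CTI-2 and 5 to 8 counts in controls. Fitted without that filter WIPI1 had a log2 fold change of -1.06 (SE 0.62, edgeR adjusted p = 0.386), so a difference was not detectable at this depth.

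ATG5 (chromosome 6, 106045423 to 106325791, minus strand) is joined to ATG12 in the complex that directs ATG8 proteins to the membrane. It had 96.7, 102.8 and 122 CPM with CTI-2 and 99.0, 90.9 and 70.2 CPM in controls. Libraries 2 and 3 with CTI-2 lay above all controls, and control 1 lay above CTI-2 library 1. The log2 fold change of ATG5 was 0.34 (SE 0.13, edgeR adjusted p = 0.0998), with 0.0581 to 0.413 over the alternatives and no call in any.

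ATG7 (chromosome 3, 11272309 to 11557665, plus strand), the E1-like enzyme that activates both ATG12 and the ATG8 proteins, was at 61.8, 54.3 and 62.0 CPM with CTI-2 and 58.9, 49.9 and 63.0 CPM in controls. All CTI-2 values lay inside the control range. ATG7 gave a log2 fold change of 0.11 (SE 0.13, approximate 95% interval -0.14 to 0.37, edgeR adjusted p = 0.646). ATG7 overlaps VGLL4 on the opposite strand, which had 65 to 94 counts with CTI-2 and 106 to 138 counts in controls, and the same uncertainty applies.

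The ATG8 genes are close relatives, and how much of their sequence they share bears on which gene a read is counted to. The coding sequence of MAP1LC3B, 378 bases in GENCODE 29, differs at 2 positions from that of MAP1LC3B2, a retrogene on chromosome 12, an identity of 99.5%. Their coding bases 1 to 60 are shown, with the differing base in a capital.
MAP1LC3B: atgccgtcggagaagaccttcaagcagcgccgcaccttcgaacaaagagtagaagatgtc
MAP1LC3B2: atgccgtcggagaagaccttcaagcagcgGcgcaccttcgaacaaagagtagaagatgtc
GABARAPL1 has a processed pseudogene, GABARAPL3 on chromosome 15, which differs at 16 of 354 positions (identity 95.5%). Bases 127 to 186 hold 6 of these, again in capitals, and counts of GABARAPL3 were not analysed here.
GABARAPL1: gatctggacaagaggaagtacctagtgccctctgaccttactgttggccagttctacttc
GABARAPL3: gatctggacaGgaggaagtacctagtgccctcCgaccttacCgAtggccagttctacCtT
The expressed family members stand farther apart. GABARAPL1 was identical to GABARAP at 76.8% and to GABARAPL2 at 62.2% of 354 aligned positions, and the last 60 coding bases, which encode the tail that is cut and joined to lipid, differ from those of GABARAPL1 at 23 positions in GABARAPL2 and at 14 in GABARAP, shown in capitals.
GABARAPL1: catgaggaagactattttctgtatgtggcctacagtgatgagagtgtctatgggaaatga
GABARAPL2: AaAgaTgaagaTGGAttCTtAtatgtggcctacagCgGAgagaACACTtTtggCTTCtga
GABARAP: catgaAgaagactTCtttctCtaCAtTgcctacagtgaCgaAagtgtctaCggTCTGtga

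MAP1LC3B, on chromosome 16, encodes LC3B, the most used marker of autophagosomes. It had 25, 21 and 15 counts with CTI-2 and 26, 32 and 17 counts in controls, or 7.93, 7.08 and 6.79 CPM with CTI-2 and 10.01, 8.14 and 7.23 CPM in controls. The groups overlapped. MAP1LC3B gave a log2 fold change of -0.17 (SE 0.27, approximate 95% interval -0.70 to 0.37, edgeR adjusted p = 0.759), an interval that leaves room for sizeable change in either direction. Reads of MAP1LC3B2 numbered 0 to 3 in a library, and with the near-identical coding sequences above the division of reads between them is uncertain. Only the 378 coding bases were compared, whereas the median MAP1LC3B transcript has 1656.5 bases, and how far the remaining bases separate the reads was not tested.

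GABARAPL1 (chromosome 12, 10212458 to 10223130, plus strand) is an ATG8 gene often described as induced by FOXO factors. It stood at 37.1, 36.4 and 35.8 CPM with CTI-2 and at 45.1, 36.9 and 27.2 CPM in controls. The 3 CTI-2 libraries were almost equal and lay inside the wide control range, with means of 36.4 ± 0.664 CPM with CTI-2 and 36.4 ± 8.93 CPM in controls (SD, n = 3 per group). Its log2 fold change was 0.04 (SE 0.16, edgeR adjusted p = 0.915) and was -0.0061 with library totals.

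GABARAPL2 (chromosome 16, 75566351 to 75577881, plus strand), an ATG8 gene also known as GATE-16, had 226, 235 and 249.97 CPM with CTI-2 and 223, 212 and 182 CPM in controls. All CTI-2 libraries were above all controls, but CTI-2 library 1 and control 1 were close to each other. GABARAPL2 gave a log2 fold change of 0.24 (SE 0.11, edgeR adjusted p = 0.17) and the call was made without control 2 alone (0.32, adjusted p = 0.0313), in a range of 0.0313 to 0.53. GABARAP, the founding member of the same subfamily and not among the 10, had 268, 271 and 262 CPM with CTI-2 and 238, 258 and 211.5 CPM in controls. It differed by 0.22 on the log2 scale (edgeR adjusted p = 0.228) and likewise passed without control 2 (0.35, adjusted p = 0.00973), and AC120057.2, which overlaps it on the same strand, had 14 to 45 counts with CTI-2 and 25 to 52 counts in controls. MAP1LC3A had no count in any CTI-2 library and 2 to 4 counts in each control and was not tested.

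SQSTM1 (ENSG00000161011), the cargo receptor gene on chromosome 5, had 1750.5, 1719.6 and 858 CPM in CTI-2 libraries 1 to 3 and 1709, 1671 and 1902 CPM in controls 1 to 3. CTI-2 libraries 1 and 2 lay inside the control range, and library 3 had 0.514 of the CPM of the next lowest library, from 1895 reads. SQSTM1 gave a log2 fold change of -0.23 (SE 0.27, approximate 95% interval -0.77 to 0.30, edgeR adjusted p = 0.673), with means of 1443 ± 507 CPM with CTI-2 and 1761 ± 124 CPM in controls (SD, n = 3 per group). Without CTI-2 library 3 it was 0.03 (adjusted p = 0.948), so the lower mean rests on that library. Of 1722 tested genes with a mean of at least 100 CPM, CTI-2 library 3 was the lowest library by at least as large a step in 4, namely SQSTM1, EIF3E, IGF2R and PIM3, and CTI-2 library 1 was so in 5 others, while no other library was so in any. These genes were picked out after their values were seen. SQSTM1 overlaps MRNIP on the opposite strand (27 to 52 counts with CTI-2 and 47 to 61 counts in controls).

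**Figure D2:**
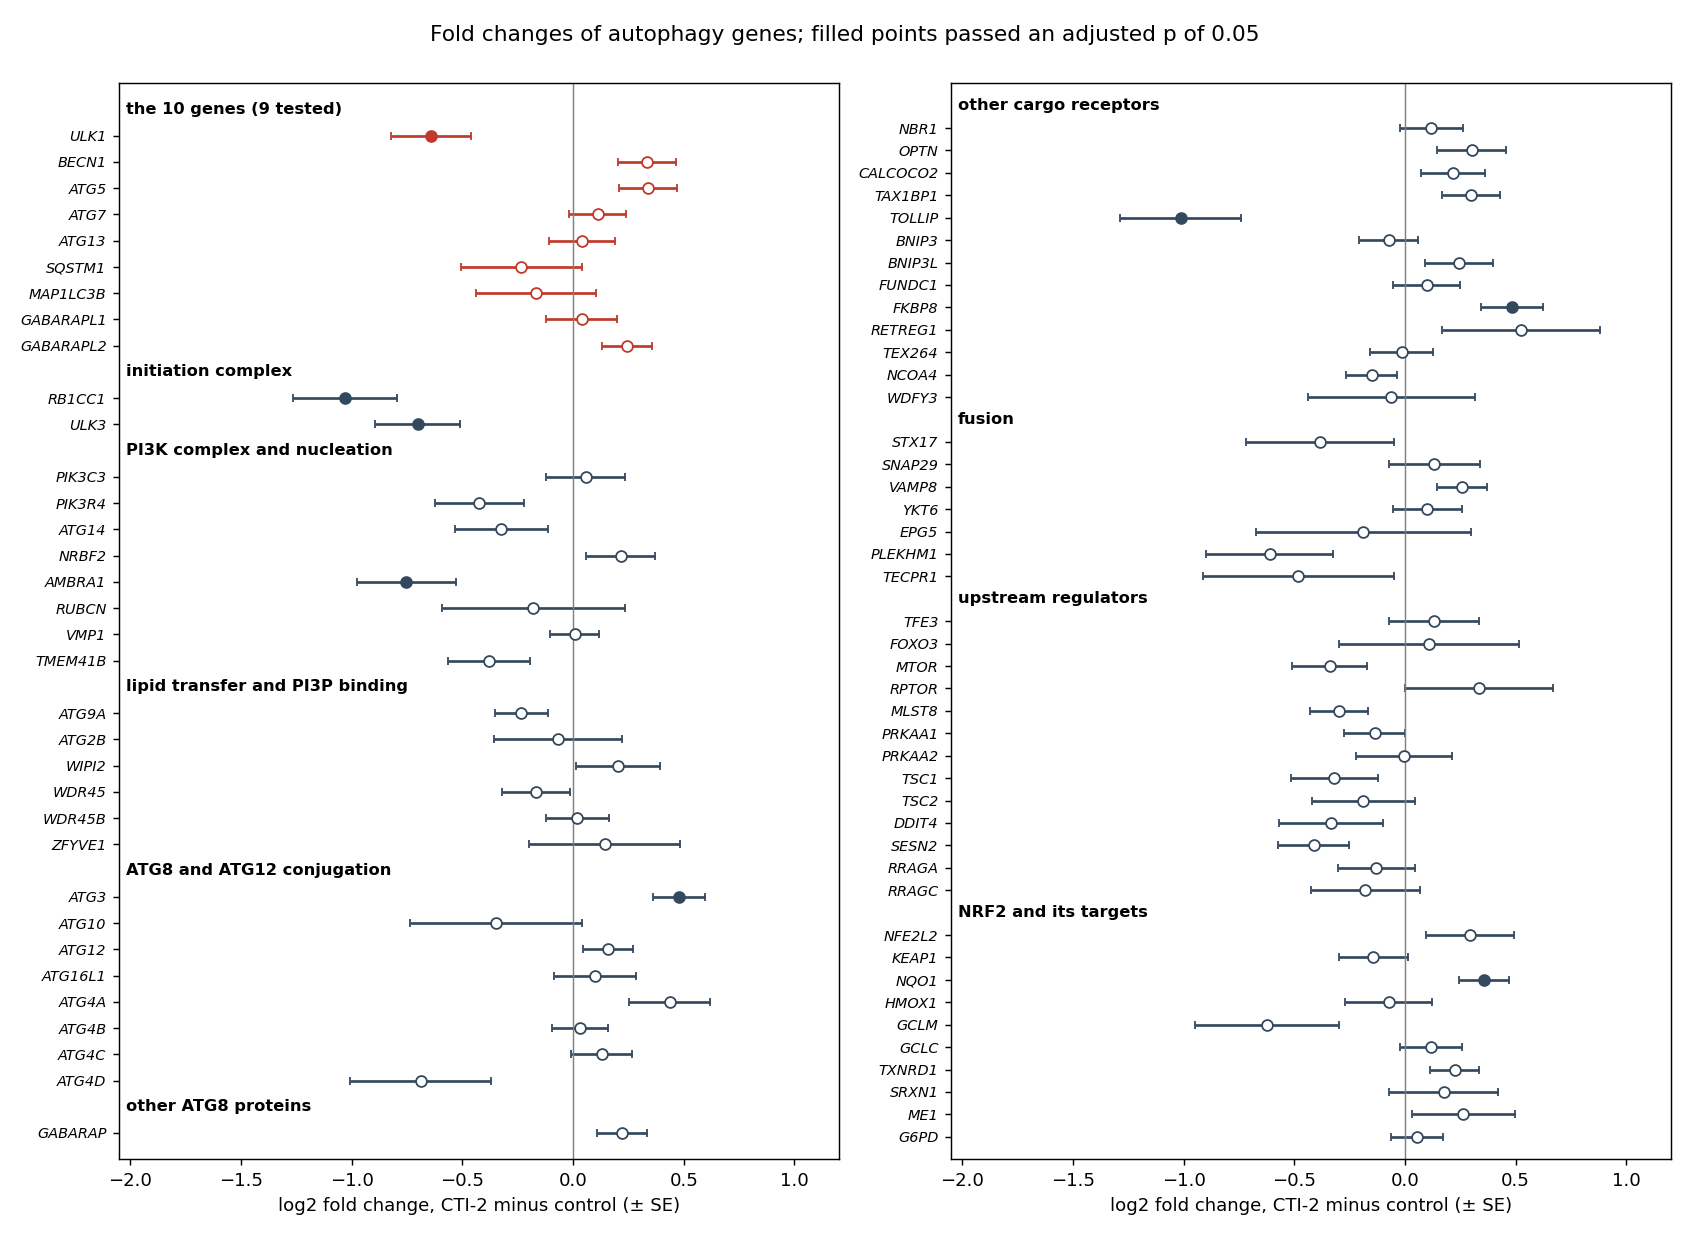
Log2 fold changes, CTI-2 minus control, with their SE (horizontal axis) for the 9 tested members (red) and for the tested genes of 7 lists of other machinery, of the upstream regulators and of NRF2 and its targets (blue), 3 libraries per group; filled points passed an adjusted p of 0.05 in edgeR. ULK1, RB1CC1, ULK3, AMBRA1 and TOLLIP are filled to the left of 0, and ATG3, FKBP8 and NQO1 to the right.

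The members were set beside 53 other genes of the autophagy machinery, of which 45 were tested. Of these 4 were lower, 2 were higher and 39 did not pass, with a median log2 fold change of 0.02. The share called, 6 of 45, stood beside the background of 8.03%. ULK2 and MAP1LC3C were not analysed here.

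Both tested genes of the initiation list were called lower, beside 4.64% of all tested genes. RB1CC1 encodes FIP200, the scaffold that holds ULK1 and ATG13. It had 10.5, 7.75 and 6.34 CPM with CTI-2 and 18.9, 18.3 and 15.3 CPM in controls, without overlap. These values came from 33, 23 and 14 counts with CTI-2 and 49, 72 and 36 counts in controls. RB1CC1 fell by 1.03 on the log2 scale (SE 0.24, edgeR adjusted p = 0.00514) and passed under all 17 alternatives (adjusted p 0.000809 to 0.0374). Its transcripts are long (median 6625 bases) but not GC-rich (37.5%). ULK3, a kinase gene related to ULK1, had 14.3, 15.2 and 14.5 CPM with CTI-2 and 29.7, 20.9 and 24.3 CPM in controls. ULK3 fell by 0.70 (SE 0.19, adjusted p = 0.0183), a call that was lost in DESeq2 (adjusted p = 0.0987) and when control 1 or any CTI-2 library was left out (highest adjusted p = 0.117). ATG101, the fourth subunit of the ULK1 complex, had 4, 3 and 4 counts with CTI-2 and 8, 7 and 10 counts in controls and was not tested.

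In the list of the Beclin 1 complex and nucleation 1 of 8 tested genes fell and none rose. Of all tested genes 4.64% were called lower and 3.39% higher. AMBRA1, whose product ties Beclin 1 to the ULK1 complex, had 10.5, 11.1 and 7.70 CPM with CTI-2 and 19.6, 15.3 and 17.5 CPM in controls (log2 fold change -0.75, SE 0.22, edgeR adjusted p = 0.0291). Its groups did not overlap, and its call was lost in DESeq2 (adjusted p = 0.142), with the length trend removed (adjusted p = 0.0628) and on leaving out any library but control 2 (highest adjusted p = 0.144). None of 6 tested genes of lipid transfer and PI3P binding passed in edgeR, DESeq2 or limma. Against 23.9% of all tested genes, 0 of the 6 had an unadjusted p under 0.05. The one of highest CPM, ATG9A, a membrane scramblase gene, had 107.7 ± 10.8 CPM with CTI-2 and 132 ± 23.0 CPM in controls (adjusted p = 0.226), and a gene that shares its strand and place, AC068946.2, had 67 to 122 counts with CTI-2 and 98 to 120 counts in controls.

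Among 8 tested conjugation genes 1 rose, beside 3.39% of all tested genes. ATG3, the E2-like enzyme that passes ATG8 proteins to lipid, had 151, 148 and 139.9 CPM with CTI-2 and 119, 114 and 91.5 CPM in controls, without overlap. ATG3 rose by 0.48 on the log2 scale (SE 0.12, edgeR adjusted p = 0.00896) and missed the threshold in 1 of 17 alternatives, without control 3 (0.35, adjusted p = 0.0515). It overlaps SLC35A5 on the opposite strand, with 46 to 54 counts with CTI-2 and 37 to 61 counts in controls.

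Of 13 tested cargo receptors other than SQSTM1 1 fell and 1 rose, beside 4.64% and 3.39% of all tested genes. TOLLIP, an adaptor that binds ubiquitin, had 4.12, 7.08 and 9.51 CPM with CTI-2 and 17.7, 12.7 and 11.5 CPM in controls (-1.01 on the log2 scale, SE 0.27, edgeR adjusted p = 0.0168). FKBP8, a receptor for mitochondria, had 58.7, 55.6 and 58.4 CPM with CTI-2 and 50.1, 41.0 and 36.2 CPM in controls (log2 fold change 0.49, SE 0.14, edgeR adjusted p = 0.0243). Neither pair of groups overlapped. TOLLIP was not called in DESeq2 (adjusted p = 0.105) or when control 1 or CTI-2 library 1 was left out (highest adjusted p = 0.14), and FKBP8 was not called in 8 of 17 alternatives. These were DESeq2 (adjusted p = 0.0709), library totals (adjusted p = 0.0633), limma on log2 CPM with either pseudocount (adjusted p = 0.0553 and 0.056), and the omission of control 3 or any CTI-2 library (highest adjusted p = 0.12). None of 7 tested fusion genes passed in edgeR, DESeq2 or limma. Against 23.9% of all tested genes, 2 of the 7 had an unadjusted p under 0.05. VAMP8, a SNARE gene and the one of highest CPM, had 126 ± 11.3 CPM with CTI-2 and 109 ± 4.27 CPM in controls (adjusted p = 0.158) and passed without control 2 (adjusted p = 0.0403).

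**Figure D3:**
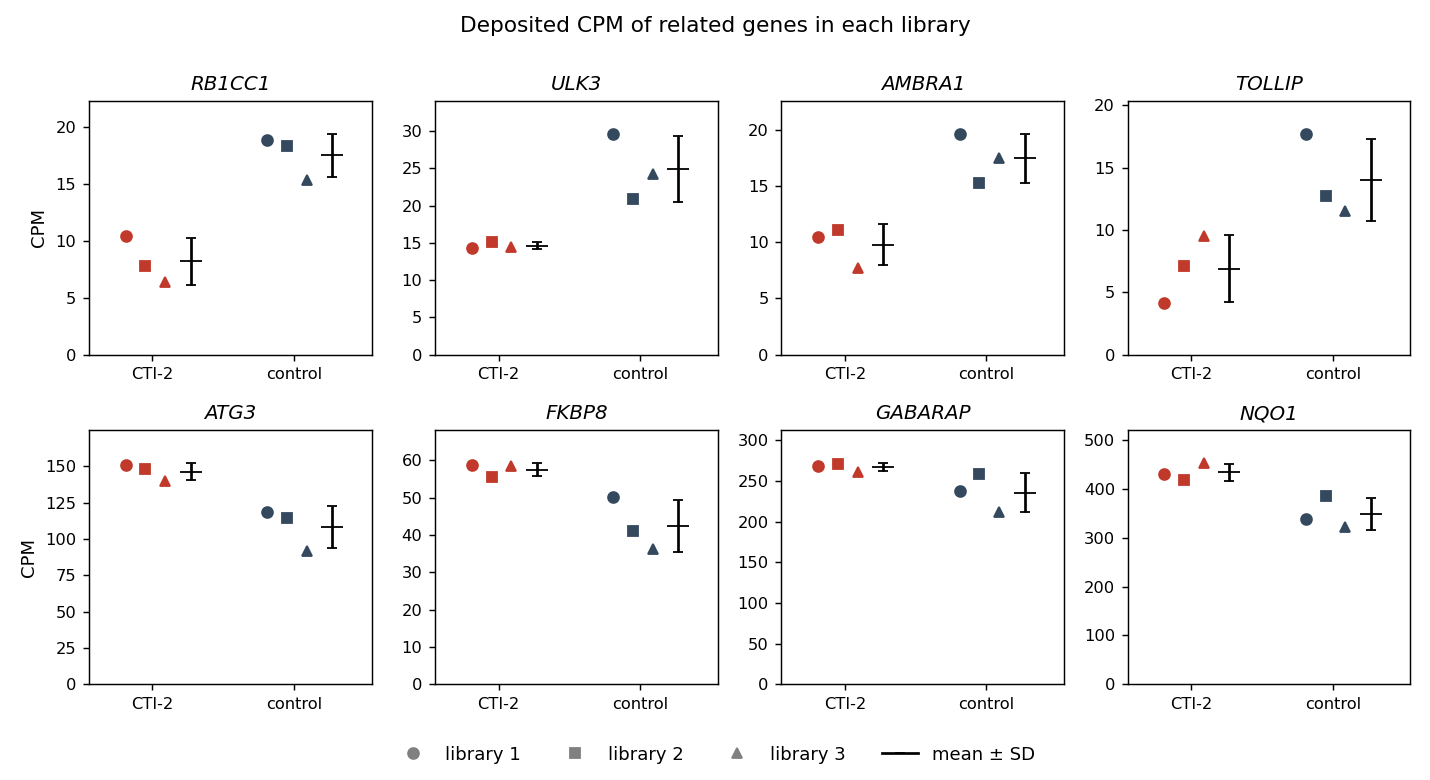
Deposited CPM (vertical axis, from 0) of 8 genes from the other lists, in the 3 CTI-2 libraries (left, red) and the 3 control libraries (right, blue), with the mean ± SD of each group in black. RB1CC1, ULK3, AMBRA1 and TOLLIP are lower in every CTI-2 library than in any control, and ATG3, FKBP8, GABARAP and NQO1 are higher.

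Genes that regulate the pathway from upstream showed no call. Of 14 listed genes, from the mTORC1 and AMPK kinases to TFEB, 13 were tested and none passed in edgeR, DESeq2 or limma, with 2 of the 13 at an unadjusted p under 0.05, against 23.9% of all tested genes. Log2 fold changes were below 0 for 10 of the 13 (median -0.18), against 5053 of all 9848 tested genes (median -0.01). MLST8, an mTOR complex subunit gene and the one of highest CPM, had 48.2, 60.3 and 51.2 CPM with CTI-2 and 67.0, 66.7 and 69.4 CPM in controls (-0.30, adjusted p = 0.149). TFEB had 5 to 10 counts with CTI-2 and 7 to 12 counts in controls and was not tested.

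SQSTM1 protein binds KEAP1, the inhibitor of NRF2, and NRF2 in turn induces SQSTM1, so a list of NRF2 and its targets was read beside it. Of 10 tested genes 1 rose, near the 8.03% called in either direction and the 3.39% called higher over all tested genes. It was NQO1, a quinone reductase gene, with 431, 419.6 and 453 CPM with CTI-2 and 339, 385.5 and 323 CPM in controls (log2 fold change 0.36, SE 0.11, edgeR adjusted p = 0.0433). This call was lost in 9 of 17 alternatives (highest adjusted p = 0.203), among them the leaving out of any library but control 2. Over the 10 NRF2 genes the median was 0.15 on the log2 scale. CTI-2 library 3, which held the low SQSTM1 value, had the highest NQO1 value of the 6. The list went both ways in that library. NFE2L2, the gene of NRF2 (21.3 CPM), and SRXN1 (11.8 CPM) were also highest there. KEAP1, the inhibitor gene (30.3 CPM), and the target GCLM (3.62 CPM from 8 counts) were lowest. The other listed genes were neither highest nor lowest in that library.

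**Figure D4:**
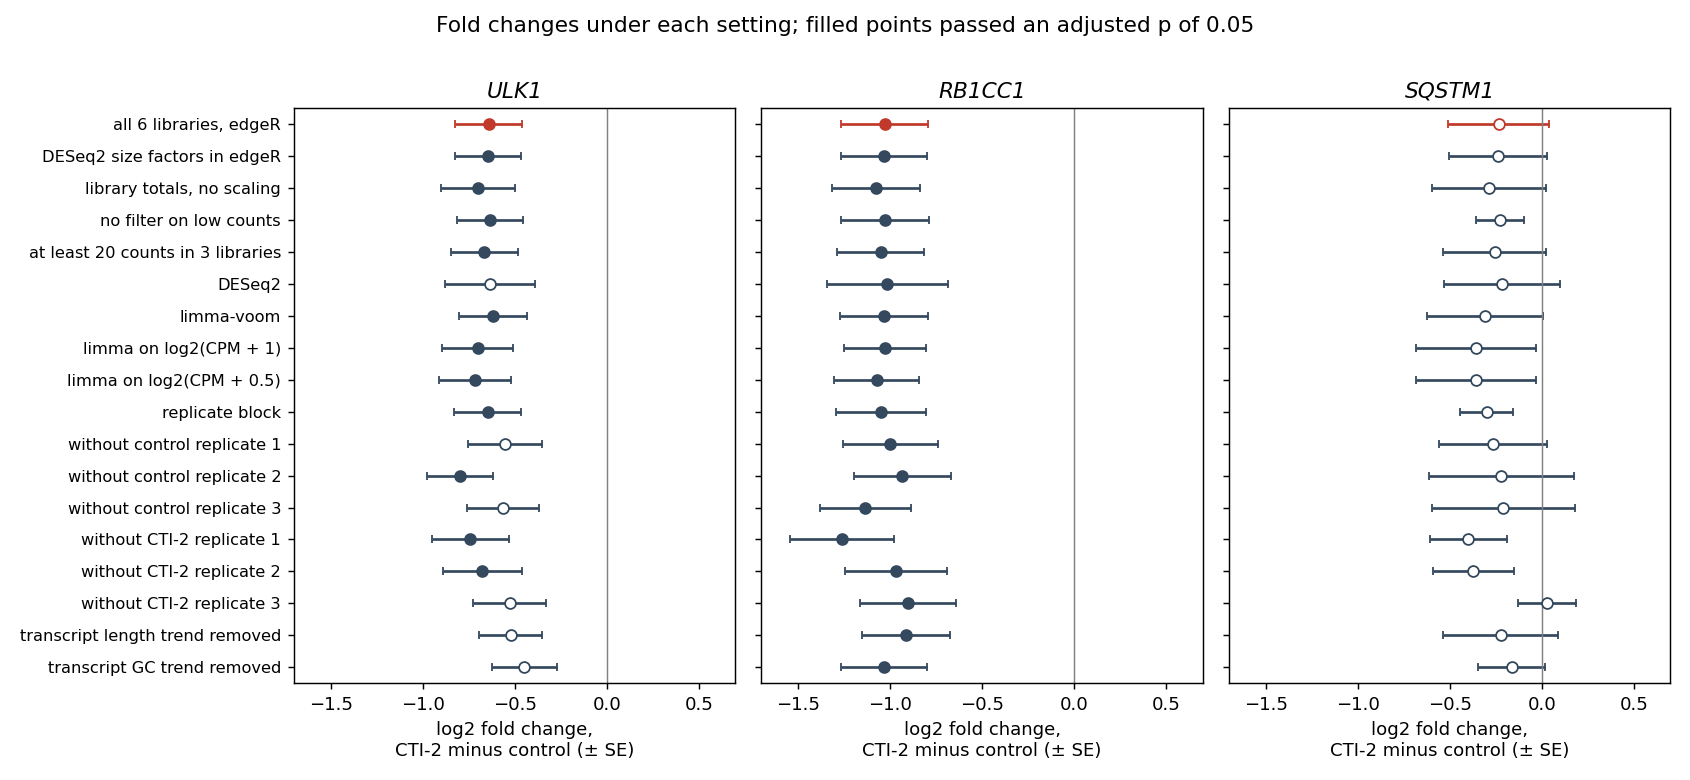
Log2 fold changes, CTI-2 minus control, with their SE (horizontal axis) of ULK1, RB1CC1 and SQSTM1 in edgeR with all 6 libraries (red) and under 17 alternatives (blue), one per row; filled points passed an adjusted p of 0.05. ULK1 stays left of 0 but is filled in 11 of 17 alternatives, RB1CC1 is filled in all, and SQSTM1 reaches 0.03 without CTI-2 library 3.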

How the data were processed

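Long cDNA reads were made from Trizol-extracted total RNA, per the labels' protocols, and minimap2, an aligner, is named in the submitters' processing notes. The deposited files hold raw counts for every gene and the authors' CPM, which equals each count over its library total. No source used here names the genome build, annotation, counter or strand setting. Coordinates come from GENCODE 29 on GRCh38, only for genes whose deposited length equals its span (80.6% of Ensembl identifiers).

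Counts were filtered with filterByExpr, TMM-scaled and compared by edgeR 4.0.16 (glmQLFit, robust) in R 4.3.3, CTI-2 minus control, with Benjamini-Hochberg adjustment over all 9848 tested genes. SE is the fold change over the root of F, and approximate 95% intervals are normal. In simulated counts for this comparison (9891 genes in the fit), 53.7% of genes changed 1.5-fold were recovered. Of those changed 2-fold 86.2% were recovered, and of those changed 4-fold 98.5%, and 9 of 165 calls were false. The simulation changed 200 genes and gave every gene the same spread between libraries (coefficient of variation 0.1 beyond counting error). These rates therefore need not hold for the real libraries. Alternatives were DESeq2 1.42.0, limma 3.58.1 (voom, or log2 CPM with pseudocounts of 1 and 0.5), other scalings and filters (none, or 20 counts in 3 libraries), a block for replicate number, omission of each library in turn, and removal of lowess trends (span 0.3) with transcript length; that with GC content was chosen after seeing the data. Length and GC were available for 93.6% of tested genes. Same-group libraries differed beyond counting error (chi-square over its degrees of freedom 1.68 to 6.03), and all were kept. Upstream and coding sequences come from RefSeq (GRCh38.p14) and GENCODE 29. The members and lists were chosen with earlier results of these data known. Named were all members, up to 3 called genes of each other list or else its gene of highest CPM, and the line markers; further genes were named after their values were seen. PCR reads carry no molecular identifiers, so floors cover counting error only.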

Additional observations from a re-analysis of the deposited data

How the results depend on the processing

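The count of called genes was 791 with all libraries, 498 in DESeq2 (264 higher, 234 lower, with an adjusted p for 7797 genes), and 400 to 1610 when a library was left out (453 without control 1, 1610 without control 2, 492, 450 and 400 without CTI-2 libraries 1 to 3). Of the 791, 334 were higher and 457 lower, against 957 higher and 653 lower without control 2 and 113 higher and 287 lower without CTI-2 library 3. Of the 9 tested members 1 was called, against 0 in DESeq2, 0 with either the transcript length or the GC trend removed, and 0 to 2 when a library was left out (0 without control 1, control 3 or CTI-2 library 3, and 2 without control 2 or CTI-2 library 1). Of the other machinery genes 6 were called, against 2 in DESeq2 and 2 to 9 when a library was left out (3 without either control 1 or control 3, 3 without CTI-2 library 2, 3 without CTI-2 library 3 and 2 without CTI-2 library 1). The cause was not tested. Signs turned for 3 members that were never called. ATG13 had a log2 fold change of 0.04, against -0.0098 with library totals, -0.0188 and -0.0192 with limma at pseudocounts of 1 and 0.5, and -0.073 to 0.20 when a library was left out. GABARAPL1 had 0.04, against -0.0061 with library totals, -0.0766 with the length trend removed and -0.14 to 0.18 when a library was left out. SQSTM1 had -0.40 to 0.0311 when a library was left out. Samples with the same replicate number did not deviate together (r = -0.049, 0.007 and -0.124 across genes for numbers 1 to 3). With the number as a block 942 genes were called, among them 1 member and 6 other machinery genes. Depth limits WIPI1, MAP1LC3B, ATG101 and TFEB, which had at most 32 counts in any library. It also limits called genes. RB1CC1 had 14 to 33 counts with CTI-2 and 36 to 72 counts in controls. AMBRA1 had 17 to 33 counts with CTI-2 and 41 to 60 counts in controls. For TOLLIP the counts were 13 to 21 with CTI-2 and 27 to 50 in controls.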
